A study of Mus musculus with 8 samples.

Results

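DNA replication and S phase genes are the set of 46 genes followed here, out of 43346 in the authors' table of all genes. They were chosen by symbol as genes whose products license, start, copy and supply chromosomal DNA replication, and all 46 symbols were found, each in a single row. The RNA came from wounded mouse skin of Sm22-Cre;tdTomato animals of mixed background, in which tdTomato is switched on where the Sm22 promoter, active in contractile cells, has driven Cre. Collagenase-dissociated wound cells were sorted as viable tdTomato-high cells 12, 15, 21 and 26 days after wounding, and SMART-seq2, a full-length cDNA method for small amounts of RNA, gave 2 libraries per day, 8 in all. All groups carry the same genotype and wound, and no unwounded group or untreated control was analysed here. The label marks any cell with past or present Sm22 promoter activity, so it is not limited to myofibroblasts, and whether both libraries of a given day stem from different animals is not stated. The p-values therefore measure the spread between these libraries, which may be technical. Each day was compared with an earlier day to follow these genes while the wound matures.

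Cells copy their DNA only in S phase. Origins are first marked by the origin recognition complex, on which Cdc6 and Cdt1 load the ring-shaped Mcm2 to Mcm7 helicase. Cdc45 and the GINS complex then switch the helicase on, and polymerases, clamp and ligase copy both strands. Most of these genes are transcribed in bursts before and during S phase by E2F transcription factors, so their RNA level in a tissue is commonly read as a trace of cycling cells. Healing skin is a classic setting of such division, since fibroblasts multiply in the young granulation tissue and later leave the cycle.

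Promoter sequences were read from the RefSeq promoter table (build GRCm38.p6), which held 42 windows for 37 of the 46 genes, each from 250 bases before to 50 bases after an annotated start. E2F words were searched on both strands as TTCCCGC or TTCGCGC or as TTGCCGC or TTGGCGC, with overlapping matches counted once. They occurred in 27 of the 42 windows (64.3%), against 9.57% of all 32851 windows of the table. The NF-Y word CCAAT, common to many cell cycle promoters, occurred in 59.5% of the windows of replication genes and in 37.4% of all windows. The CHR words TTTGAA and TTCGAA, known from promoters of late cell cycle genes, occurred in 19.0% of the windows of replication genes and in 19.2% of all windows. For comparison, 20 windows of mitosis genes held the CHR words in 80.0%, the E2F words in 15.0% and CCAAT in 90.0%. These shares describe letters in a window and show no binding. The 200 bases before the start are printed for 5 genes with E2F words there, chosen to span the helicase, histone delivery, nucleotide supply and E2F feedback, and for Mcm2, which had none, 5′ to 3′ on the strand of the gene with E2F words in capitals. Words that overlap run together in the capitals.
Mcm5: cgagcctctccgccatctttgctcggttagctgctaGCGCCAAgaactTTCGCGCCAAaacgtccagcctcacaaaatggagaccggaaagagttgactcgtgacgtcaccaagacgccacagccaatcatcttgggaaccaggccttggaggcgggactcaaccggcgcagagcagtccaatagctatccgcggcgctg
Mcm6: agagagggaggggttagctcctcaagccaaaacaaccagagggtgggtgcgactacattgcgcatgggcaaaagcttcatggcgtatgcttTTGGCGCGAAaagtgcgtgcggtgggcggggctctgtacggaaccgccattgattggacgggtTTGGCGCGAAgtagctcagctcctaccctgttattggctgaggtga
Chaf1a: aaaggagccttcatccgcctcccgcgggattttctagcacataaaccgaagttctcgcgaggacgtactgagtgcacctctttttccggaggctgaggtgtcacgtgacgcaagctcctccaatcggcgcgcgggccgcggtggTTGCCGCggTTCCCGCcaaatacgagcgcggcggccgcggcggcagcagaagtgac
Rrm1: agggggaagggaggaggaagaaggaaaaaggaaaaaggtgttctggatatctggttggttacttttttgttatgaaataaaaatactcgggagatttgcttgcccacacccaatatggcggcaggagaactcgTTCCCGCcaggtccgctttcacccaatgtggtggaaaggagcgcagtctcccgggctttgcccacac
E2f7: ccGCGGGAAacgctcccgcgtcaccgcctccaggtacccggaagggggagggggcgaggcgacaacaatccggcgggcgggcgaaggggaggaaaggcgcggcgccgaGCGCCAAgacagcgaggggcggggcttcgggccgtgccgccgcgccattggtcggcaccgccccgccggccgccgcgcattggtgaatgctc
Mcm2: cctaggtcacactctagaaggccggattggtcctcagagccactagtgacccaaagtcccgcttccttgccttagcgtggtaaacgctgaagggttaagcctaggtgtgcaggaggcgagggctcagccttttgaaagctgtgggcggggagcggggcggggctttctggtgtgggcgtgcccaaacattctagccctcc
The stretches lie at chr8:75109309-75109508 for Mcm5 (plus strand), chr1:128359706-128359905 for Mcm6 (minus strand), chr17:56040216-56040415 for Chaf1a (plus strand), chr7:102441495-102441694 for Rrm1 (plus strand), chr10:110745239-110745438 for E2f7 (plus strand) and chr6:88898781-88898980 for Mcm2 (minus strand). None of these stretches overlaps the annotated body of its own gene in GENCODE vM21.

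**Figure D1:**
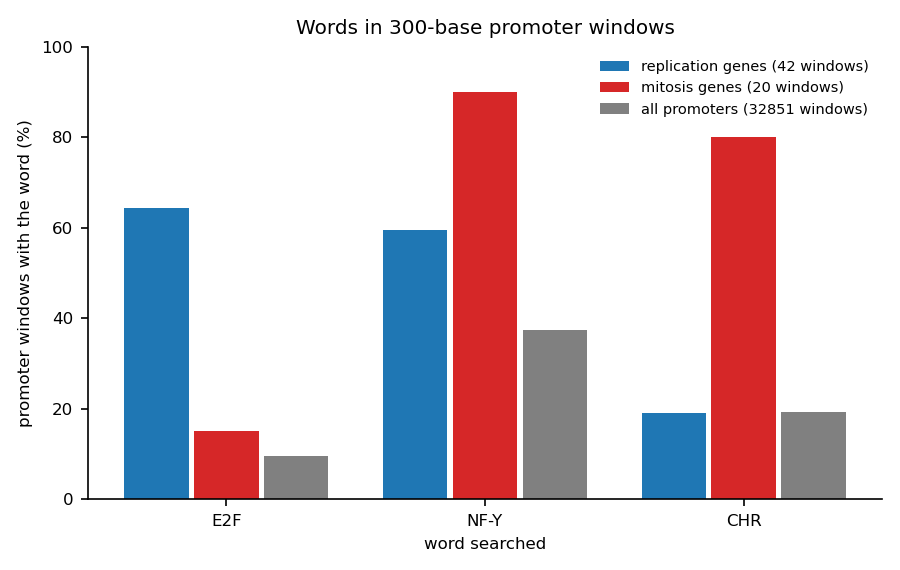
Share of 300-base promoter windows (y axis, %) that hold an E2F, NF-Y or CHR word (x axis) in replication genes, in mitosis genes and in all promoters of the RefSeq table. E2F words are in 64.3% of the windows of replication genes and 15.0% of those of mitosis genes, and CHR words in 19.0% and 80.0%.

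Levels are in TPM, a count of transcripts scaled per library, which compares genes per length. TPM keep no depth, so the depth and its counting error are unknown. Between 13135 and 14147 genes reached 1 TPM per library. Markers of fibroblasts and myofibroblasts were abundant on every day, with a sum over 12 genes of 45170 to 59800 TPM on day 12 and 99800 to 110400 TPM on day 26. These markers went both ways from day 12 to day 26, with 5 higher, 3 lower, 4 not passed and log2 changes from -1.57 to 1.79. The 3 that fell, named after their values were seen, were Acta2, the smooth muscle actin that defines myofibroblasts (log2 change -1.57, adjusted p = 0.0156), Postn, a matrix protein (-1.17, adjusted p = 0.0109), and Vim, an intermediate filament (-0.59, adjusted p = 0.0333). Xist, which coats the inactive X chromosome in female cells, had 30.7 and 5.54 TPM at day 15 and 4.78 and 27.5 TPM at day 21. It stayed at 0.01 TPM or less in the libraries of days 12 and 26. Values are given as TPM per library or as mean ± SD over the n = 2 libraries of a day. Log2 changes are on the log2(TPM + 1) scale with their SE from limma, which understates the change of low genes. Rose, fell, higher and lower calls refer to an adjusted p under 0.05 in limma, with Benjamini-Hochberg adjustment over all 15062 tested genes. Library numbers are those of the authors' columns.

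Replication genes fell widely between day 12 and day 26. Their TPM summed to 898 and 911 at day 12, 883 and 740 at day 15, 487 and 470 at day 21 and 393 and 511.5 at day 26. Both late days thus stood below every library of days 12 and 15, and the sums of days 21 and 26 overlapped. Of the 46 genes 44 had at least 1 TPM in at least 2 libraries and were tested. Of these 30 were lower on day 26 than on day 12, 14 did not pass and 0 were higher, against 11.8% of all tested genes called lower and 5.26% called higher. At an unadjusted p under 0.05 there were 38, all with a change below 0, against 22.7% of all tested genes. The median log2 change was -1.12, against -0.20 over all tested genes, or -0.92 relative to that shift. It was -0.857 after quantile normalization and -0.944 after median of ratios scaling. The levels of the 2 days did not overlap, with day 26 lower, for 42 of the 44, against 43.5% of all tested genes. The count was also taken over the 34 members with a mean of at least 5 TPM over all libraries. Of these 23 fell, against 13.7% of the 10152 genes tested with that filter. A gene can pass the first filter through its high day alone. High days also raise the mean over all libraries, so the second filter does not remove this limit.

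The number of calls moved with single libraries. Without library 2 of day 12 it was 8, without library 3 of day 12 it was 10, and without library 1 of day 26 it was 12, and the median log2 change in these fits was -1.06, -1.05 and -0.954. Mcm2, Mcm5, Rfc3, Rrm1, Rrm2, Tk1, Chaf1b and Ccne1 passed in each of the 17 other settings run. On GRCm38 (GENCODE vM21) Mcm2 lies at chr6:88883474-88898780, Rfc3 at chr5:151642756-151651242, Tk1 at chr11:117815526-117826092 and Ccne1 at chr7:38097984-38107534. In bulk RNA, fewer cells in S phase and less RNA of these genes per cell cannot be told apart.

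**Figure D2:**
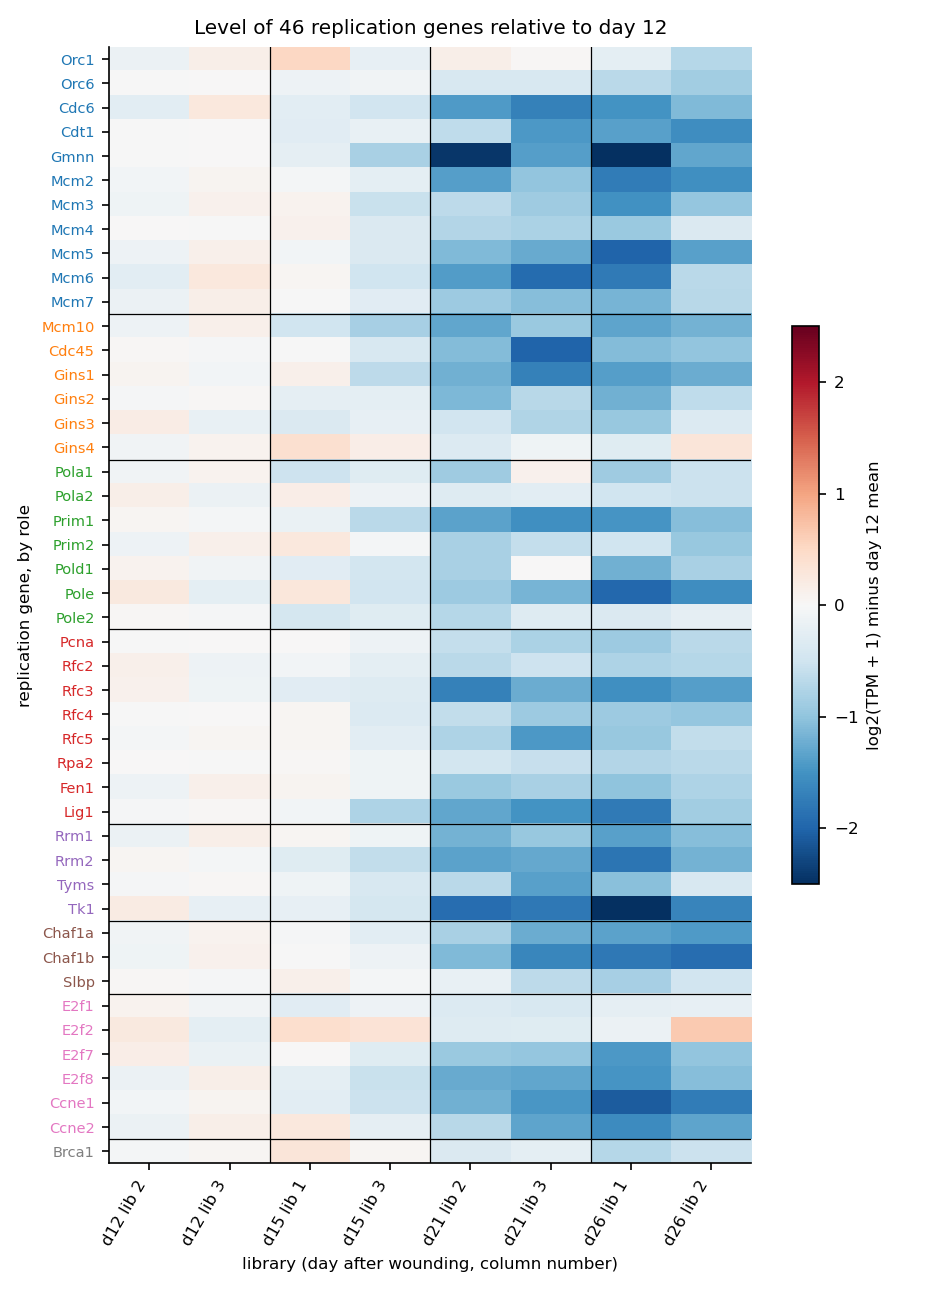
Level of each of the 46 replication genes (rows, coloured and ruled off by role) in each of the 8 libraries (columns), as log2(TPM + 1) minus the mean of day 12. Blue marks levels below day 12 and fills most cells of days 21 and 26, while Gins4, E2f1 and E2f2 stay pale.

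**Figure D3:**
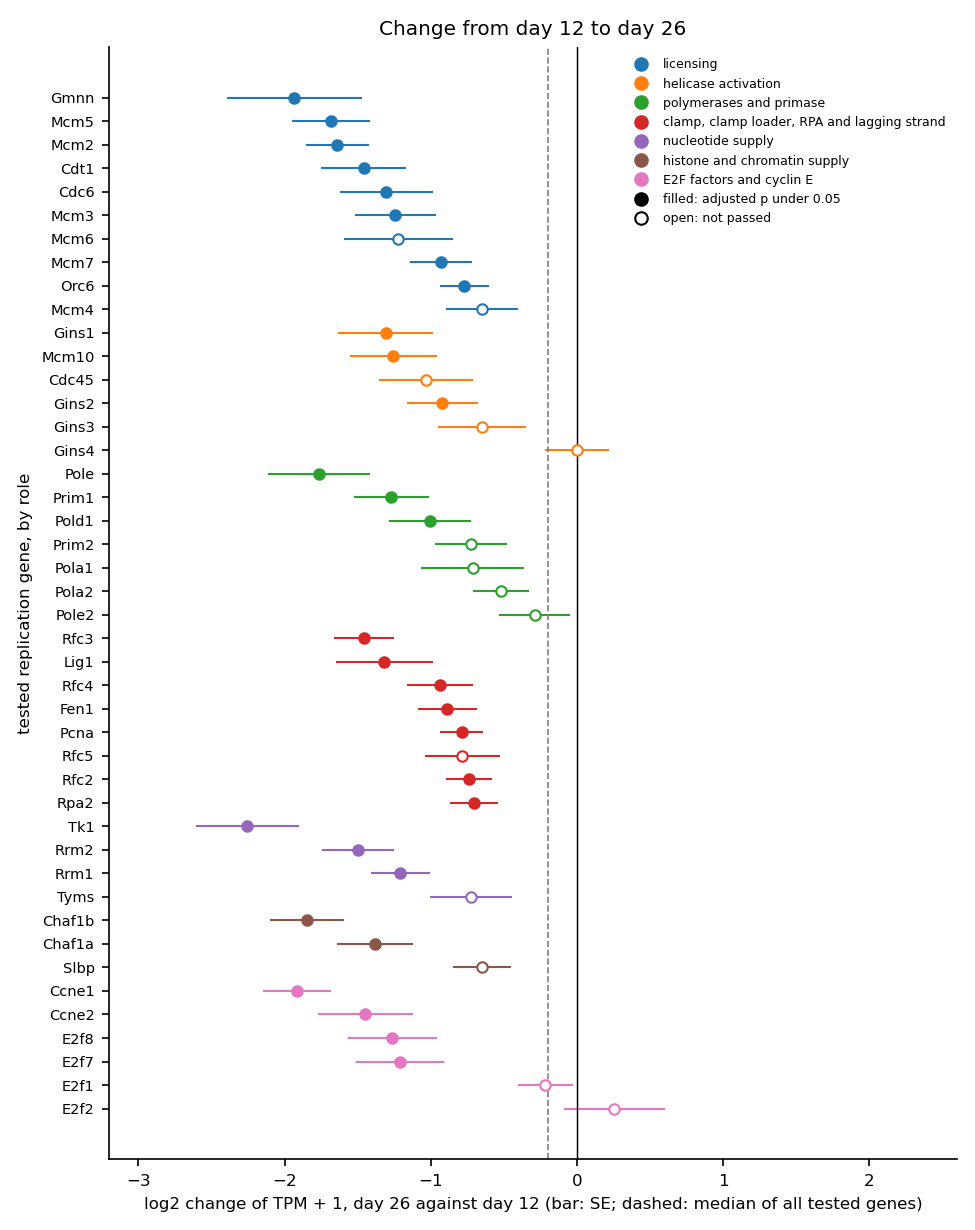
Log2 change of TPM + 1 from day 12 to day 26 (x axis) for the 44 tested replication genes (y axis, grouped by role), with SE as bars. Filled points have an adjusted p under 0.05. The dashed line is the median of all tested genes (-0.20), and 30 filled points lie to its left.

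Of 11 genes that license origins 10 were tested, 8 fell and 2 did not pass, with a median log2 change of -1.27. Mcm2, a helicase subunit, had 21.8 and 24.2 TPM at day 12, 22.3 and 19.1 at day 15, 8.22 and 11.1 at day 21 and 6.13 and 7.31 at day 26. The early and the late days did not overlap (log2 change from day 12 to day 26 -1.64, SE 0.21, adjusted p = 0.00183). Mcm5, another subunit, had 16.2 and 19.6 TPM at day 12, 17.0 and 13.5 at day 15, 7.71 and 6.89 at day 21 and 3.67 and 6.35 at day 26, again with each late library below each early one (log2 change -1.68, SE 0.27, adjusted p = 0.00409). Mcm3 fell from 19.7 ± 2.10 to 7.87 ± 2.31 TPM and Mcm7 from 34.7 ± 4.84 to 17.9 ± 4.19 TPM (adjusted p = 0.0175 and 0.0196). Mcm4 and Mcm6 did not pass (log2 changes -0.65 and -1.22, adjusted p = 0.109 and 0.0567). Mcm6 differed between the libraries of a day, with 28.3 and 40.8 TPM on day 12 and 9.31 and 20.9 TPM on day 26, but its days did not overlap.

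The Mcm2 to Mcm7 subunits form a ring in equal numbers, but their mean RNA levels per length differed by up to 3.58-fold within a day. Means ran from 17.9 TPM (Mcm5) to 34.7 TPM (Mcm7) on day 12, a ratio of 1.94, and from 5.01 TPM (Mcm5) to 17.9 TPM (Mcm7) on day 26, a ratio of 3.58. The difference between these ratios was not tested. The sum over the 6 genes was 136 and 164 TPM at day 12, 152 and 113 at day 15, 69.9 and 63.3 at day 21 and 50.4 and 80.3 at day 26.

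The loading factors were lower in TPM than the ring they load. Cdc6 had 2.30 and 3.76 TPM on day 12 and 0.40 and 0.84 TPM on day 26, and Cdt1 had 10.1 TPM in both libraries of day 12 and 3.33 and 2.77 TPM on day 26. Both fell (adjusted p = 0.0252 and 0.0111). Gmnn encodes geminin, which binds Cdt1 and blocks a second round of licensing. It had 20.0 and 20.4 TPM at day 12, 17.1 and 11.2 at day 15, 2.93 and 7.15 at day 21 and 2.57 and 7.63 at day 26. Gmnn fell (log2 change -1.93, SE 0.46, adjusted p = 0.0227), although the libraries of each late day lay far apart. It no longer passed without a filter on low values, without either library of day 12 or without library 1 of day 26.

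Among the subunits of the origin recognition complex Orc6 fell and the others did not pass or were not tested. Orc6 had 24.2 and 24.6 TPM at day 12, 22.4 and 23.0 at day 15, 18.2 and 18.3 at day 21 and 14.9 and 13.0 at day 26, without overlap between any day and the next (log2 change from day 12 to day 26 -0.77, SE 0.17, adjusted p = 0.0154). It did not pass after quantile normalization or median of ratios scaling, nor without either library of day 12 or library 2 of day 26. Orc1, the subunit known to be degraded and remade in each cycle, was too low to be tested, with at most 1.49 TPM in any library. The other subunits, looked at after their values were seen, did not pass. Orc2 had 12.16 ± 1.98 and 10.5 ± 0.70 TPM on days 12 and 26, Orc3 23.4 ± 2.93 and 24.6 ± 2.17, Orc4 27.6 ± 0.44 and 28.0 ± 3.14, and Orc5 14.5 ± 0.29 and 14.1 ± 2.52. The 95% interval of the log2 change was -0.393 to 0.428 for Orc4 and -0.845 to 0.478 for Orc2, so these data leave room for a change of that size. Whether Orc6 differed from the others was not tested.

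Among the genes that activate the helicase 3 of 6 fell and 3 did not pass. Mcm10, a factor that helps start unwinding, fell from 2.90 ± 0.45 to 0.63 ± 0.11 TPM and Gins1 from 6.95 ± 0.55 to 2.21 ± 0.21 TPM (adjusted p = 0.0221 and 0.0266). Gins2 had 20.0 and 21.1 TPM on day 12 and 8.38 and 12.8 TPM on day 26 (log2 change -0.92, adjusted p = 0.0324). Cdc45, the helicase cofactor, had 10.5 and 10.1 TPM at day 12, 10.2 and 7.52 at day 15, 4.33 and 1.83 at day 21 and 4.33 and 4.72 at day 26. Its early libraries were all above its late ones, but the change missed the threshold (log2 change -1.03, SE 0.32, adjusted p = 0.0592).

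The 4 GINS subunits act as a complex, and Gins4 did not pass. It had 37.3 and 41.9 TPM at day 12, 52.5 and 44.2 at day 15, 31.0 and 36.7 at day 21 and 31.9 and 48.9 at day 26. The first and the last day overlapped, and Gins4 was the most abundant GINS transcript in every library. Its log2 change was near 0 (95% interval -0.497 to 0.495, adjusted p = 1), and its sign turned in 5 of the 17 other settings. Gins3 did not pass either (4.58 ± 0.98 and 2.61 ± 1.06 TPM, adjusted p = 0.178). Whether Gins4 changed differently from Gins1 and Gins2 was not tested.

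**Figure D4:**
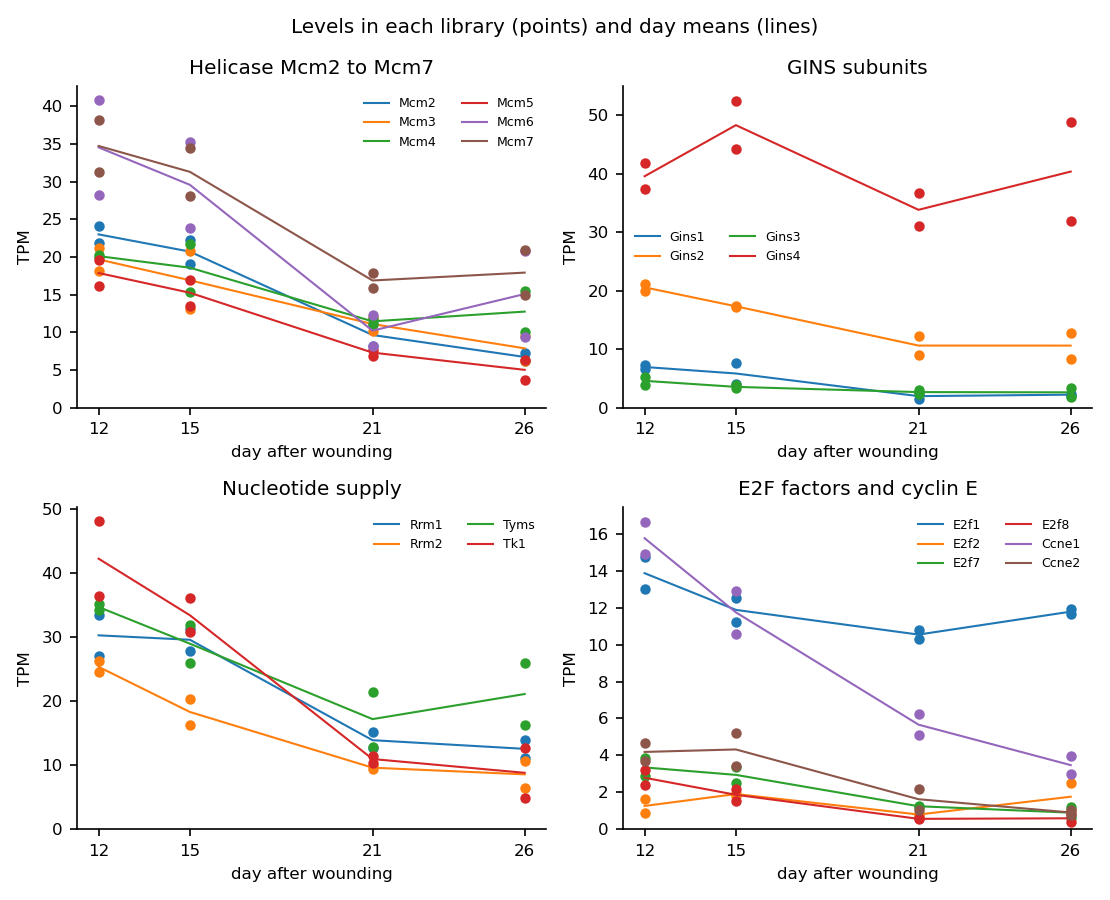
TPM (y axis) by day after wounding (x axis) for helicase, GINS, nucleotide and E2F or cyclin E genes, with each library as a point and day means joined by lines. Most lines drop between days 15 and 21. Gins4 (39.6 and 40.4 TPM on days 12 and 26) and E2f1 (13.9 and 11.8 TPM) have close means on those days.

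Of 7 polymerase and primase genes 3 fell and 4 did not pass. Pole, the catalytic subunit of the leading strand polymerase, had 5.74 and 3.8 TPM at day 12, 5.91 and 3.08 at day 15, 2.03 and 1.54 at day 21 and 0.45 and 0.93 at day 26. Its days 12 and 26 did not overlap (log2 change -1.77, SE 0.35, adjusted p = 0.0106). Its partner Pole2 had 6.29 ± 0.27 and 4.96 ± 0.36 TPM and did not pass (95% interval of the log2 change -0.85 to 0.269). Prim1, the catalytic primase subunit, fell from 15.9 ± 0.95 to 6.08 ± 1.39 TPM (adjusted p = 0.0116). Prim2, the large primase subunit, had 11.5 ± 1.43 and 6.62 ± 1.66 TPM and missed the threshold (adjusted p = 0.0786). Pold1, the catalytic subunit of the lagging strand polymerase, fell from 20.7 ± 1.83 to 9.90 ± 2.01 TPM (adjusted p = 0.0411) and lost its call in 10 of 17 other settings. Pola1 and Pola2, subunits of the polymerase that extends primers, did not pass (adjusted p = 0.201 and 0.102).

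Of the 8 genes for the clamp, its loader, single-strand binding and lagging strand joining 7 fell. Pcna, the sliding clamp and the most abundant member on average (70.7 TPM), had 89.6 and 90.1 TPM at day 12, 90.0 and 81.8 at day 15, 59.1 and 51.3 at day 21 and 47.3 and 56.1 at day 26. The early libraries were all above the late ones (log2 change -0.79, SE 0.15, adjusted p = 0.00903). Rfc3, a clamp loader subunit, had 33.1 and 28.7 TPM at day 12, 25.1 and 24.5 at day 15, 8.84 and 12.4 at day 21 and 10.0 and 11.2 at day 26. Its early and late days were far apart (log2 change -1.45, SE 0.20, adjusted p = 0.00253). Its loader partners had fitted changes nearer to 0, with log2 changes of -0.74 for Rfc2, -0.94 for Rfc4 and -0.78 for Rfc5, of which Rfc5 did not pass (adjusted p = 0.0714). Rpa2, which coats single strands, Fen1, the flap nuclease, and Lig1, the ligase of Okazaki fragments, fell by 0.70, 0.89 and 1.32 on the log2 scale (adjusted p = 0.0215, 0.0184 and 0.0281). The exons of Fen1 and Gins2 overlap Gm10143 and Gse1 on the other strand over 78.8% and 67.3% of their bases, and these 2 genes reached at most 1.07 and 6.19 TPM. Fen1 also overlaps Tmem258 over 5.37% of its exon bases, and Rfc4 overlaps Eif4a2 over 12.7%. These partners on the other strand reached 525 and 212 TPM, far above Fen1 and Rfc4, so the levels of both members are uncertain.

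Of 4 genes of nucleotide supply 3 fell and 1 did not pass. Tk1, the cytosolic thymidine kinase of cycling cells, had 48.0 and 36.4 TPM at day 12, 36.0 and 30.7 at day 15, 10.4 and 11.5 at day 21 and 4.86 and 12.7 at day 26. Every early library stood above every late one, and the mean of day 12 was 4.80-fold that of day 26 (log2 change -2.26, SE 0.35, adjusted p = 0.0039). This was the fitted change farthest from 0 among the members on the log2(TPM + 1) scale, whereas the ratio of means was higher for the less abundant Pole (6.91) and Cdc6 (4.89). Rrm1 and Rrm2 encode the subunits of ribonucleotide reductase, which makes deoxynucleotides. Rrm1 had 27.0 and 33.4 TPM on day 12 and 11.1 and 13.9 on day 26, and Rrm2 had 26.18 and 24.5 TPM on day 12 and 6.46 and 10.6 on day 26. Both fell (log2 changes -1.21 and -1.50, SE 0.20 and 0.24, adjusted p = 0.005 and 0.00476). Tyms, thymidylate synthase, had 34.7 ± 0.71 and 21.1 ± 6.89 TPM and missed the threshold (log2 change -0.73, adjusted p = 0.114).

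Both tested subunits of chromatin assembly factor 1, which places histones on new DNA, fell. Chaf1b had 11.0 and 12.9 TPM at day 12, 11.9 and 10.8 at day 15, 5.0 and 3.15 at day 21 and 2.77 and 2.43 at day 26. Its early and late days did not overlap (log2 change -1.85, SE 0.26, adjusted p = 0.0024). Chaf1a fell from 7.66 ± 0.71 to 2.33 ± 0.11 TPM (adjusted p = 0.00866), but 52.5% of its exon bases overlap Ubxn6 on the other strand. Ubxn6 reached 52.2 TPM, and reads of both genes cannot be told apart where they overlap, since the libraries do not keep strand. Slbp, which binds the stem-loop of histone messages, had 52.1 ± 1.02 and 33.1 ± 5.75 TPM and missed the threshold (adjusted p = 0.056).

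Of 6 E2F and cyclin E genes 4 fell and 2 did not pass. Ccne1, the cyclin that drives entry into S phase with Cdk2, had 14.9 and 16.6 TPM at day 12, 12.9 and 10.6 at day 15, 6.24 and 5.09 at day 21 and 2.98 and 3.96 at day 26, with no overlap between any day and the next. It fell (log2 change -1.92, SE 0.23, adjusted p = 0.00136), as did Ccne2, from 4.18 ± 0.70 to 0.90 ± 0.23 TPM (adjusted p = 0.0182). Ints8 on the other strand overlaps 17.4% of the exon bases of Ccne2 and reached 11.4 TPM, so the level of Ccne2 is uncertain. E2f7 and E2f8, repressors that are themselves E2F targets, fell from 3.35 ± 0.69 to 0.89 ± 0.42 TPM and from 2.79 ± 0.57 to 0.585 ± 0.318 TPM (adjusted p = 0.0258 and 0.0231). E2f1, an activator, had 14.8 and 13.0 TPM at day 12, 11.2 and 12.6 at day 15, 10.8 and 10.3 at day 21 and 11.7 and 11.9 at day 26. Both libraries of day 26 were below both of day 12, and it did not pass (log2 change -0.22, 95% interval -0.645 to 0.214, adjusted p = 0.469). E2f2, another activator, had 0.78 to 2.49 TPM over the 8 libraries and did not pass (adjusted p = 0.653). Its log2 change of 0.26 turned sign in 1 of 16 other settings. Whether E2f1 and E2f2 changed differently from the other 4 was not tested. Brca1, a repair gene of S phase, was too low to be tested, with at most 1.27 TPM on day 15 and 0.12 and 0.27 TPM on day 26.

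The median change differed between the steps, which cover unequal numbers of days and were not tested against each other. Over the 4 days 28 of the 44 tested members passed the limma F test, against 12.4% of all tested genes. This number was 7 without either library of day 12, 15 without library 1 of day 15, 14 and 12 without library 2 or 3 of day 21, and 16 without library 1 of day 26. From day 12 to day 15 none passed in limma (0 lower and 0 higher, against 0.073% and 0.0863% of all tested genes, and 0 at an unadjusted p under 0.05, against 8.74% of all tested genes in either direction), with a median log2 change of -0.21. Both libraries of day 15 were below both of day 12 for 18 of 44 members and above them for 2, against 17.8% and 19% of all tested genes. From day 15 to day 21 the median was -0.83, and 41 of 44 had both libraries of day 21 below both of day 15, against 30.3% of all tested genes. In this step 3 members fell, Rfc3, Rrm1 and Chaf1b, against 0.91% of all tested genes, and 34 were lower at an unadjusted p under 0.05, against 13% of all tested genes. The log2 changes of the 3 were -1.17 for Rfc3 (SE 0.20, adjusted p = 0.0388), -1.04 for Rrm1 (SE 0.20, adjusted p = 0.0466) and -1.30 for Chaf1b (SE 0.26, adjusted p = 0.0496). None was higher, against 0.491% of all tested genes. The number that fell was 0 without any single library of days 12, 15 or 21 and 5 without either library of day 26. Without the library with the most Xist on each of days 15 and 21, an alternative chosen after seeing the data, it was 0 and the median was -0.533, and 4 members passed the F test. From day 21 to day 26 none passed in limma (against 0.219% lower and 0.0996% higher), and 1 had an unadjusted p under 0.05, against 18.7% of all tested genes in either direction. The median of this last step was -0.12, or 0.102 after quantile normalization, so it has no settled direction. Both libraries of day 26 were below both of day 21 for 13 of 44 members and above them for 2, against 31.8% and 16.9% of all tested genes. On day 26 the mean was below that of day 21 for 27 tested members and above it for 17. Without the libraries of days 15 and 21 with the most Xist, the median from day 12 to day 15 was -0.302, beside -0.533 from day 15 to day 21. The steps share libraries and are not independent. Xist was found on days 15 and 21 only, so sex and day cannot be told apart in the first and the last step.

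Mitosis genes, a list of 22 with no member in common, were set beside the replication genes because both mark dividing cells. All 22 fell from day 12 to day 26, with a median log2 change of -2.17 against -1.12 for the replication genes. From day 15 to day 21 the mitosis median was -1.35 and 10 of 22 fell. Their summed TPM on day 26 was on average 17.2% of that of day 12, whereas that of the replication genes was 50.0%. On day 21 these shares were 25.9% and 53.0%. Plk1, a mitotic kinase, went from 26.5 ± 1.20 to 2.5 ± 0.83 TPM, and Birc5, a subunit of the chromosomal passenger complex, from 59.8 TPM to 8.81 TPM in the mean. The difference between the lists was not tested.

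**Figure D5:**
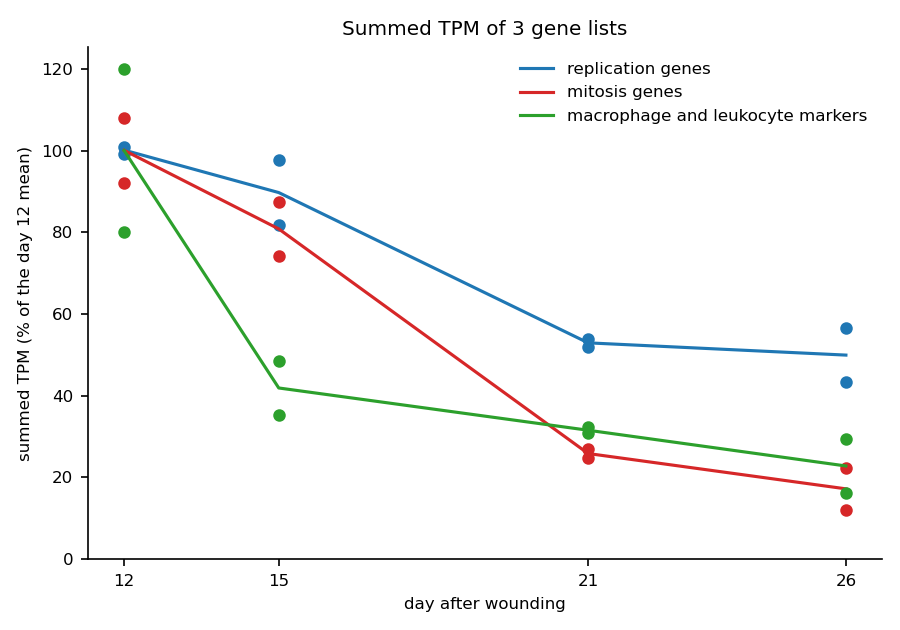
Summed TPM as a percentage of the day 12 mean (y axis) by day after wounding (x axis) for the 46 replication genes, 22 mitosis genes and 19 macrophage and leukocyte markers, with each library as a point and lines through day means. Day 26 stands at 50.0%, 17.2% and 22.8%, and the leukocyte markers are at 41.9% by day 15, when the replication genes are at 89.8%.

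Markers of other cells moved over the same days. Of 18 tested macrophage and leukocyte markers 16 fell from day 12 to day 26. The sum over their 19 genes was 4299 to 6434 TPM on day 12, 1887 to 2609 on day 15, 1652 to 1731 on day 21, and 868 to 1580 on day 26, and no marker was listed at 0 in any library. Most of that change lay between days 12 and 15, where the replication genes had a median log2 change of -0.21 and the leukocyte markers one of -1.12. From day 15 to day 21 these medians were -0.83 and -0.11, and from day 21 to day 26 they were -0.12 and -0.82. In that last step 17 of 18 tested leukocyte markers had a change below 0, and 0 were called in limma. At an unadjusted p under 0.05 there were 11, against 18.7% of all tested genes in either direction. From day 12 to day 15 all 18 had a change below 0, and 0 were called in limma as well. At an unadjusted p under 0.05 there were 13 in that step, against 8.74% of all tested genes in either direction. Within day 26, library 1 held less of both, with 38 of 46 replication genes below library 2, and leukocyte sums of 868 and 1580 TPM. Within day 15 the order was opposite, since library 1 held more of 40 of 46 replication genes and leukocyte sums were 1887 and 2609 TPM. The shares of all tested genes with these within-day orders were not counted. With library 1 or 2 alone for day 26, the median log2 change from day 12 over all tested genes was -0.247 and -0.158. With library 1 or 3 alone for day 15 it was 0.118 and -0.0851, so the libraries also differed over all genes. For the replication genes these medians were -1.26 and -0.954 for day 26, and -0.0351 and -0.302 for day 15. Keratinocyte markers rose, 14 of 14 tested, and their sum over 15 genes went from 8.46 to 10.5 TPM on day 12 to 443 to 816 TPM on day 26. Of 15 keratinocyte markers 3 and 6 were listed at 0 in the libraries of day 12. Of 4 tested lymphocyte and granulocyte markers 1 fell, and none of 10 endothelial or 8 pericyte and smooth muscle markers passed in limma between days 12 and 26, with 0 at an unadjusted p under 0.05 in either list. From day 15 to day 21, where the median of the replication genes was -0.83, the pericyte and smooth muscle markers had a median log2 change of -0.90, with 8 of 8 below 0, 0 called in limma and 1 at an unadjusted p under 0.05. Their sum over 8 genes was 1973 and 704 TPM on day 15 and 737 and 365 TPM on day 21, so the days overlapped, and none was listed at 0. The endothelial median in that step was -0.21. The part of leukocytes, keratinocytes or pericytes and smooth muscle cells in the fall of the replication genes was not tested.

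Other genes of replication, outside the 46, changed in part. Of 33 tested origin and fork genes 12 fell and 21 did not pass, with a median log2 change of -0.65. Top2a, the topoisomerase of dividing cells, went from 23.7 ± 3.20 to 3.52 ± 0.04 TPM, and Clspn, a fork checkpoint adaptor, from 8.01 ± 0.04 to 0.77 ± 0.28 TPM (adjusted p = 0.000507 and 0.00126). Wdhd1, a polymerase tether, and Rnaseh2b, a subunit of the enzyme that removes ribonucleotides, also fell (log2 changes -1.47 and -0.78). Rfc1, the large clamp loader subunit, fell from 22.6 ± 0.74 to 10.8 ± 0.07 TPM. The small polymerase subunit genes Pole4 and Pold4 and the fork protection gene Tipin, the most abundant of those that did not pass, had log2 changes of -0.41, -0.08 and 0.30.

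Of 15 other nucleotide genes 6 fell and 9 did not pass, with a median log2 change of -0.27. Dck, the deoxycytidine kinase, fell from 13.5 ± 0.59 to 3.30 ± 0.67 TPM, and Samhd1, which breaks deoxynucleotides down, from 62.0 ± 0.49 to 31.2 ± 0.59 TPM (adjusted p = 0.00306 and 0.00709). Dctd, a deoxycytidylate deaminase, Ctps, a CTP synthase, and Dtymk, the thymidylate kinase, fell by 1.36, 0.77 and 0.64 on the log2 scale. Paics of purine synthesis, the mitochondrial kinase gene Dguok and the second CTP synthase gene Ctps2 did not pass (log2 changes -0.27, 0.03 and 0.16). Rrm2b and Tk2, the relatives of Rrm2 and Tk1 that act outside S phase, were looked at after their values were seen. They had 3.17 ± 0.83 and 3.62 ± 1.77 TPM, and 15.5 ± 0.74 and 18.2 ± 1.07 TPM, on days 12 and 26, and neither passed (adjusted p = 0.876 and 0.465).

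Of 9 other genes of chromatin replication 5 did not pass and 4 fell. The 4 were Uhrf1, which directs methylation of new DNA, Dnmt1, the enzyme that does so, and the histone chaperones Nasp and Asf1b (log2 changes -2.22, -1.23, -1.08 and -1.65). Tonsl, a reader of new histones, and the histone-binding genes Rbbp7 and Rbbp4 did not pass (log2 changes -0.12, -0.14 and -0.05). Of 20 other regulators of entry into S phase 8 fell, 1 rose and 11 did not pass. Of all tested genes 11.8% were called lower and 5.26% higher, so 1 riser among 20 is near the share of all genes. Ccna2, the cyclin of S phase and mitosis, fell from 44.1 ± 3.92 to 6.03 ± 1.00 TPM, Cdk4, the kinase partner of cyclin D, from 481 ± 3.95 to 274 ± 6.48 TPM, and Cdk2 from 23.2 ± 0.15 to 11.6 ± 0.65 TPM. E2f4, a repressor of resting cells, and Ccnd3 also fell (log2 changes -1.10 and -0.63). The single riser was Ccnd1, the cyclin that responds to growth factors, from 27.0 ± 2.26 to 60.8 ± 15.9 TPM (adjusted p = 0.0464). The cyclin gene Ccnd2, the E2F partner gene Tfdp1 and the growth regulator Myc did not pass (log2 changes 0.09, -0.38 and 0.16).

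In the authors' deposited tables of genes changed over the days, 38 of the 46 members appear, 21 in cluster C1 of 1412 genes and 17 in cluster C2 of 1244 genes. None is in clusters C3, C4 or C5. All 5 clusters together hold 4120 genes, while the authors' table of all genes holds 43346, of which 15062 were tested here. The cluster tables belong to the same series, so they are not separate support. In the authors' deposited table for cluster C2, Ccne1 has a p-value of 0.000123 and Orc6 one of 3.02e-05, for a test that is not stated there. The 8 members in no cluster are Orc1, Mcm4, Gins3, Gins4, Pola1, Prim2, Pold1 and E2f2. Of these only Pold1 passed the comparison of day 26 with day 12 described above.

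The promoter words were set beside the changes as a description. The 23 tested members with an E2F word had a median log2 change from day 12 to day 26 of -1.22, with a range from -1.85 to 0.26, and 18 fell. The 12 with a promoter entry but no such word had a median of -0.79, with a range from -2.26 to -0.22, and 6 fell. The 9 with no promoter entry had a median of -0.92, with a range from -1.93 to -0.001, and 6 fell. The ranges overlapped, and Tk1, Ccne1 and Mcm2 fell with no E2F word in the window. In Mcm6 the words of the printed stretch began 109 and 46 bases before the start, and a further one lay after it, at base 25 counted from the start. In Mcm5 they began 164 and 152 bases before the start.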

How the data were processed

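Per the labels' protocols, total RNA of sorted cells (RIN above the submitters' limit) was made into SMART-seq2 libraries. Per the submitters' processing notes, RSEM 1.12.2 and mm10 were used, with the aligner and annotation not given in the sources used here. The deposited signal of the authors' table of all genes is TPM plus 1: values minus 1 sum to nearly the same total in each column and none is below 0, so 1 was subtracted and the test planned for TPM was kept. The authors' cluster tables give a p-value per gene, per the file headers, and their 40 value columns were not used. Columns were assigned to days by name, not to single samples, since their numbers differ from the replicate numbers of the labels.

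Log2(TPM + 1) of genes that reached 1 TPM in 2 or more libraries was fitted with limma 3.58.1 (trend, R 4.3.3), with a term for each day and all 8 libraries in the fit (4 residual and 4.76 prior degrees of freedom), with 4 contrasts and an F test, 2-sided, Benjamini-Hochberg adjusted over 15062 genes. The procedure was tested on simulated data. Alternatives covered pseudocount, filter, scaling, variance model and single libraries. Members and lists were chosen with earlier results of these data known. All members could be named. Of the other lists up to 5 genes that passed by adjusted p and 3 that did not by level were named, plus genes said to be chosen after their values were seen. Positions are from GENCODE vM21 (GRCm38, the same build as mm10). SMART-seq2 keeps no strand, and 17 members have an exon overlapped by a gene on the other strand. Among those not named above, Orc6 overlaps Vps35 over 6.93% of its exon bases, Rfc2 overlaps Lat2 over 15.1% and Cdc45 overlaps Ufd1 over 5.96%. These partners reached 70.7, 13.9 and 53.8 TPM, so the levels of these members are uncertain too. Mcm7 overlaps Cops6 over 1.45% and Ap4m1 over 7.25% of its exon bases, and Rfc5 overlaps Wsb2 over 10.7%. Cops6, Ap4m1 and Wsb2 on the other strand reached 231, 21.1 and 29.4 TPM, so Mcm7 and Rfc5 are uncertain as well. The pseudogenes Pcna-ps1 and Pcna-ps2 were listed at 0.15 TPM or less.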

Additional observations from a re-analysis of the deposited data

How the results depend on the processing

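No paired analysis was possible because the numbers of the value columns are not those of the labels' replicates. The number of members lower on day 26 than on day 12 was 21 to 31 over the 8 planned changes of pseudocount, filter, scaling and variance model, 25 without the libraries of days 15 and 21 that held the most Xist (an alternative chosen after seeing the data), and 8 to 32 when single libraries were left out. A day with 1 library is assumed to vary like the others. For day 21 against day 15 the count of 3 was 1 with log2(TPM + 0.1), 0 without a filter, with quantile normalization, with median of ratios scaling, without the variance trend and without the libraries with the most Xist, and 0 to 5 when single libraries were left out. The F test count of 28 was 7 without a filter, 4 without the libraries with the most Xist, and 7 to 23 when single libraries were left out. The causes were not tested. Counts of members higher in any comparison, and of members lower on day 15 than day 12 or on day 26 than day 21, were 0 in each setting run. Depth is unknown, so values of members under 5 TPM have an unknown counting error.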
